A study of Mus musculus with 2 samples.

Results

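A set of 9 genes whose proteins write, erase or relay histone marks, and that have been tied to the tolerant state of macrophages, was followed in nuclear RNA: Kdm6b, Ezh1, Ezh2, Setdb2, Hdac3, Ncor1, Sirt1, Ep300 and Crebbp. They were chosen by gene symbol, and each symbol matched 1 gene, so the set held 9 of the 55536 mouse genes measured. The RNA came from the nuclear fraction of C57BL/6J bone-marrow-derived macrophages, primary cells grown out of marrow, and was sequenced as total RNA after removal of ribosomal RNA. All cells had received Lipid A, the TLR4-binding moiety of lipopolysaccharide, at 100 ng/ml for 12 h, had then been kept without it for 12 h after a wash, and had received it again at 100 ng/ml for 120 min. There was 1 such group with 2 biological replicates that share a donor label. Replicate 1 started from 1 µg of RNA and replicate 2 from 500 ng, so input amount and replicate cannot be told apart. Cells that had met Lipid A once or never were not analysed here, so the values are levels and isoform make-up after the second exposure and not responses to it.

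As background, macrophages that meet lipopolysaccharide repeatedly fail to re-induce many inflammatory genes, a state called tolerance that is held in part in chromatin. Trimethylation of histone H3 lysine 27 (H3K27) by Polycomb repressive complex 2 (PRC2) and methylation of lysine 9 (H3K9) mark silent genes, and demethylases remove them. Acetylation by the p300/CBP enzymes accompanies active enhancers and promoters, and deacetylases, recruited by corepressors or driven by NAD+, take it away. Of the 9 genes, Ezh1 and Ezh2 encode the alternative catalytic subunits of PRC2, Kdm6b (also called Jmjd3) an H3K27 demethylase, and Setdb2 an H3K9 methyltransferase. Ncor1 encodes a corepressor scaffold and Hdac3 the deacetylase bound to it, Sirt1 an NAD+-dependent deacetylase, and Ep300 and Crebbp the paralogous acetyltransferases p300 and CBP.

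In Sirt1, Ezh1 and Setdb2, a transcript that parts from the full-length coding form inside the gene took a sizeable share of the RNA. Its estimated share was larger in replicate 2. This was not particular to these 3 genes. Ep300-202 held 13.1% of its gene's TPM in replicate 1 and 19.1% in replicate 2. Ncor1-203, with 11.9% of the longest coding length, held 11.1% and 17.9%. Sequences at the parting points are shown for Sirt1, Ezh1 and Setdb2 only. They were taken from the GENCODE M21 transcript sequences (build mm10), 5′ to 3′ on the minus strand that carries all 3 genes. Lower case gives the 30 bases up to the parting point. For Ezh1 and Setdb2, capitals give the first bases after it.
Ezh1-203: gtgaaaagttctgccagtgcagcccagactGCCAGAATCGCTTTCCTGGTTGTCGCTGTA
Ezh1-201: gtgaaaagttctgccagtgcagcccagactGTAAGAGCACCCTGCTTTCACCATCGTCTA
Setdb2-205: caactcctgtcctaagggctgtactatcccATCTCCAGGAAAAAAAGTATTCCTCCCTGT
Setdb2-202: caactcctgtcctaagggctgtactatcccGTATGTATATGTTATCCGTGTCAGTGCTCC
In both pairs the second transcript reads on from the exon into the intron, with the letters GTA at the exon's edge where the first transcript joins the next exon. The Ezh1 bases shown lie at chr11:101195668-101199287 for Ezh1-203, with the intron skipped, and at chr11:101199228-101199287 for Ezh1-201. Those of Setdb2 lie at chr14:59419532-59423417 for Setdb2-205, again with the intron skipped, and at chr14:59423358-59423417 for Setdb2-202.

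For Sirt1 the capitals mark different things in the pair below. In Sirt1-201 they are the first coding bases of the next exon, and in Sirt1-205 they are the stop codon that follows 12 coding bases of an additional exon.
Sirt1-201: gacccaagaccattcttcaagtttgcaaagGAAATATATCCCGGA
Sirt1-205: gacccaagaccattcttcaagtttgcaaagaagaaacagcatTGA
The span of these bases is chr10:63326172-63331774 in Sirt1-201 and chr10:63326770-63331774 in Sirt1-205. The additional exon has 125 nt, lies at chr10:63326660-63326784 and belongs to no other annotated Sirt1 transcript. Annotation types Sirt1-205 as a target of nonsense-mediated decay, the pathway that removes messages with an early stop codon.

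The libraries held 28450309 expected counts on genes in replicate 1 and 16940220 in replicate 2. A gene listed at 0 could have had up to 3 counts, or 0.105 CPM in replicate 1 and 0.177 CPM in replicate 2. Levels are given as TPM, each gene's length-corrected part of all transcripts. Short RNAs took 76.7% of the TPM in replicate 1 and 61.9% in replicate 2, which lowers every other gene's TPM, so levels were also recomputed without short and mitochondrial RNAs (rescaled TPM). Mitochondrial genes took 4.15% of the counts in replicate 1 and 10.3% in replicate 2. All 8 macrophage markers were detected, with summed TPM of 2446 in replicate 1 and 2521 in replicate 2 and median TPM of 134 and 108. Of 36 markers in 9 lists for other cell types, 2 reached a deposited TPM of 1 in both libraries, Cd4 at 13.9 and 13.5 and Kdr at 12.0 and 8.30. Cd3e, Cd3g, Cd79a, Ncr1, Ly6g and Elane were listed at 0. On rescaled TPM, Pecam1, Zbtb46, Kit and Alas2 also reached 1 in both libraries. With the second tool, described below, Pecam1, Cd3d and Alas2 did so. In bulk RNA, fewer cells of a type and less RNA per cell cannot be told apart. The labels do not say that the replicates came from separate animals, so the spread between them may be technical.

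All 9 genes were detected, meaning a TPM of 1 or more in both libraries, against 39.6% of the 22028 protein-coding genes. Their median TPM was 9.54 in replicate 1 and 19.7 in replicate 2, beside medians of 6.53 and 9.53 over the 8726 detected protein-coding genes. Both acetyltransferases, the H3K9 methyltransferase, the corepressor, Ezh1 and Sirt1 stood above the median of detected genes in both libraries. Hdac3 and Ezh2 stood below it in both, and Kdm6b was above it in replicate 1 only.

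**Figure D1:**
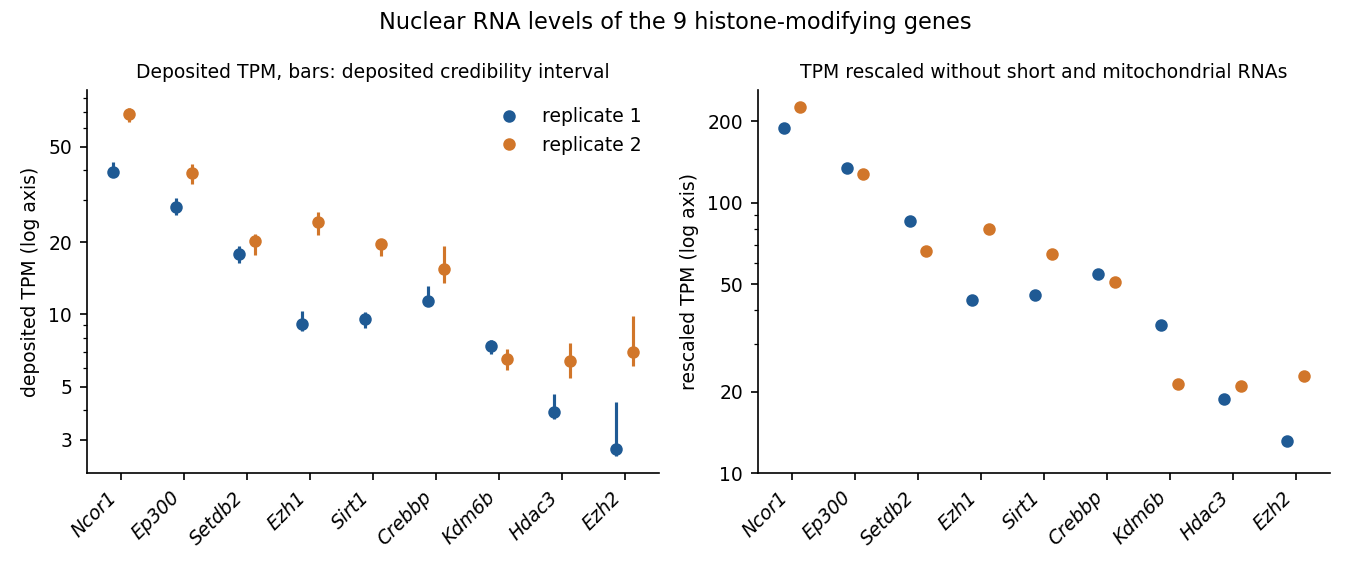
TPM of the 9 genes on log axes in replicate 1 (blue) and replicate 2 (orange), ordered by mean; the left panel gives deposited TPM with bars for the deposited credibility intervals, and the right panel TPM rescaled without short and mitochondrial RNAs. Ncor1 was highest in both libraries on both scales (39.5 and 68.7 deposited TPM), and on the deposited scale Kdm6b was the 1 gene with a lower value in replicate 2.

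The catalytic subunits of PRC2 stood at unequal levels. Ezh2 (chr6:47530139-47595341) had a TPM of 2.74 in replicate 1 and 7.0 in replicate 2, against 9.13 and 24.3 for Ezh1 (chr11:101191115-101226463). Ezh1 was thus above Ezh2 in each library, and the highest Ezh2 value stayed below the lowest Ezh1 value. The log2 ratio of TPM + 1, Ezh2 over Ezh1, was -1.55 ± 0.16 (SD, n = 2), with -1.44 in replicate 1 and -1.66 in replicate 2. With 2 libraries an exact two-sided sign-flip test cannot give a p below 0.5, so no test was made of it. Counted only on transcripts typed protein-coding, an alternative added after the data were seen, Ezh2 had 0.79 and 0.77 TPM against 6.41 and 13.6 for Ezh1, a log2 ratio of -2.55 ± 0.70.

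The 2 PRC2 subunits also had the widest relative spread between libraries: TPM was 2.56 times as high in replicate 2 as in replicate 1 for Ezh2 and 2.66 times for Ezh1. On the rescaled values these factors were 1.75 and 1.82. The mean transcript length that divides the counts was part of this difference, since the effective length of Ezh1 was 2246 nt in replicate 2 and 2805 nt in replicate 1, and that of Ezh2 980 and 1301 nt. Counts were 1145 and 1264 for Ezh1 and 144 and 176 for Ezh2 in the same order, and Ezh2 thus rested on the fewest counts of the 9 genes. A long non-coding gene on the other strand, Gm26625, shares 174 exonic bases with Ezh2 and had 19 counts in replicate 1 and 28 in replicate 2.

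Kdm6b (chr11:69398508-69413675), the H3K27 demethylase, had a TPM of 7.39 in replicate 1 and 6.53 in replicate 2, from 2187 and 882 counts. Its deposited intervals, 6.86 to 7.84 and 5.88 to 7.17, overlapped. On the rescaled scale the libraries were farther apart, at 35.4 and 21.5. Kdm6bos, an annotated antisense gene that shares 286 exonic bases with Kdm6b, had 8 counts in replicate 1 and 0 in replicate 2. How strand was treated in counting is not given in the sources used here, so reads from Kdm6b and its antisense partner cannot be told apart in the shared bases.

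Setdb2 (chr14:59402009-59440884), the H3K9 methyltransferase, had 17.9 TPM in replicate 1 and 20.2 in replicate 2, from 1834 and 887 counts, and its intervals overlapped too. In rescaled TPM it had 85.9 and 66.4. Intervals of the other 7 genes did not overlap between the libraries.

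Ncor1 (chr11:62316426-62458541), the corepressor scaffold, had the highest level of the 9, with 39.5 TPM in replicate 1 and 68.7 in replicate 2. That placed it above 96.3% and 97.5% of all protein-coding genes. Hdac3 (chr18:37935844-37955016), the deacetylase that binds it, had 3.93 TPM and 6.41 TPM, from 359 and 245 counts. By gene TPM the scaffold therefore exceeded its enzyme in both libraries. Transcripts with at least 90% of the longest coding sequence held only 16.5% and 14.5% of Ncor1 TPM, a measure added after the data were seen. Sirt1 (chr10:63319005-63381704), the NAD+-dependent deacetylase, had 9.54 TPM in replicate 1 and 19.7 in replicate 2, from 1290 and 1213 counts, and ranked 5 of 9 in each library.

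Among the acetyltransferases, Ep300 (chr15:81585351-81652077) had 28.1 TPM in replicate 1 and 39 in replicate 2, against 11.4 and 15.5 for Crebbp (chr16:4081328-4213997). The log2 ratio of TPM + 1, Ep300 over Crebbp, was 1.26 ± 0.03 (SD, n = 2), and every Ep300 value was above every Crebbp value. On protein-coding transcripts alone the paralogs were closer, with 10.8 and 19.7 TPM for Ep300 against 9.90 and 11.3 for Crebbp. This ratio, added after the data were seen, was 0.11 in replicate 1 and 0.75 in replicate 2. An unclassified gene, Gm37186, lies on the same strand within the Crebbp gene without sharing exonic bases, and had 269 and 457 counts of its own.

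By mean TPM the order was Ncor1 (54.1), Ep300 (33.6), Setdb2 (19.1), Ezh1 (16.7), Sirt1 (14.6), Crebbp (13.4), Kdm6b (6.96), Hdac3 (5.17) and Ezh2 (4.87). The ranges of the 2 libraries overlapped for the neighbours Setdb2 and Ezh1, Ezh1 and Sirt1, Sirt1 and Crebbp, and Hdac3 and Ezh2. They did not overlap for Ncor1 and Ep300, Ep300 and Setdb2, Crebbp and Kdm6b, and Kdm6b and Hdac3. Among genes that were not neighbours, Setdb2 lay above Crebbp without overlap, whereas Ezh1 overlapped Crebbp and Ezh2 overlapped Kdm6b, with the order of each pair differing between the libraries.

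Set among the genes of their own classes by deposited TPM, the 9 held different places. Ep300 ranked first of 9 acetyltransferase genes in each library, and Crebbp ranked 3 in each. By mean TPM the highest of the other 7 was Kat6a, at 12.3 and 14.4 TPM, and the lowest Kat6b, at 1.52 and 2.66; Kat7, at 8.35 and 16.2 TPM, was above Kat6a and Crebbp in replicate 2. Ncor1 ranked first of 6 genes of the NCoR complex and Hdac3 ranked last. The lowest of the other 4 was Gps2, at 5.07 and 8.10 TPM. Among 11 zinc-dependent deacetylases Hdac3 ranked 3, below Hdac1 at 17.4 and 25.3 TPM, while Hdac11 was lowest with 0.07 and 0 TPM.

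Kdm6b was below Kdm6a (Utx), the X-linked H3K27 demethylase, which had 12.3 TPM in replicate 1 and 18.5 in replicate 2. Setdb2 ranked 2 of 6 H3K9 methyltransferases, below Ehmt2 (G9a) at 35.4 and 38.3 TPM and above Suv39h2, the lowest, at 0.93 and 2.32. Sirt1 ranked 3 of 7 sirtuins, the highest being Sirt7 at 21.7 and 24.6 TPM and the lowest Sirt5 at 0.53 and 0.60. These places depended on the quantification. By the second tool, described below, Sirt2 was highest at 11.5 and 25.3 TPM, and Sirt5, at 3.09 and 11.3, was above Sirt4, at 2.13 and 1.86. Within PRC2, Ezh1 ranked 6 of 12 in replicate 1 and 3 in replicate 2, and Ezh2 ranked 10 and 9. The accessory subunit gene Aebp2 was highest there, with 41.4 and 66.5 TPM. Epop had the lowest mean, with 0.22 and 1.20, although Phf19 was lower in replicate 2, at 0.66.

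Over all 9 classes, 49 of 57 related genes were detected, with median TPM of 5.89 and 10.7. These include the H3K9 demethylases, 6 of 7 detected from Kdm4a at 18.2 and 25.7 TPM down to Kdm4d at 0.03 and 0, and the H3K4 methyltransferases, 7 of 7 detected with Kmt2a highest by mean at 18.2 and 41.6 and Setd7 lowest at 2.78 and 6.10. Between the libraries, 11 of the 57 were higher and 18 lower in replicate 2 by the test described next, in which Kdm4d and Hdac11 had too few counts to be tested. Of all tested genes, 29.3% were higher and 30.0% lower.

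**Figure D2:**
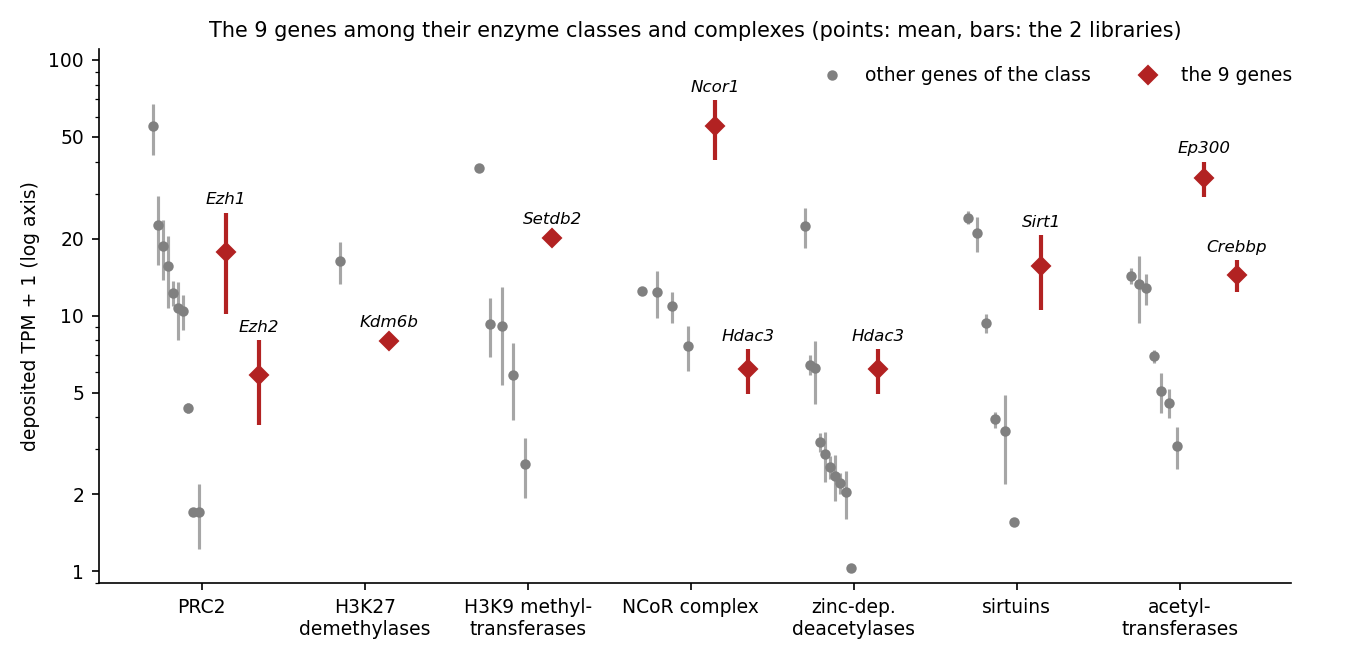
Deposited TPM + 1 on a log axis for the 9 genes (red diamonds) and the other genes of 7 classes (grey points); points are means and bars span the 2 libraries, and Hdac3 is drawn in both of its classes. Ncor1 and Ep300 lie above every other gene of their classes, whereas Hdac3 is lowest in the NCoR complex.

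Each library's counts were next compared with the other's, scaled by TMM factors, in an exact two-sided binomial test with Benjamini-Hochberg adjustment over 14698 genes. Such a test knows only the error of counting and says nothing about conditions. At an adjusted p under 0.05 it called 7 of the 9 genes, 3 higher and 4 lower in replicate 2, against 59.3% of all tested genes, 29.3% higher and 30.0% lower. The set was thus not set apart by its number of calls. All 8 macrophage markers were called lower in replicate 2, with log2 ratios between -1.44 for Fcgr1 and -0.16 for Adgre1, and the part of this shift in the differences of the 9 genes was not tested.

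Lower in replicate 2 were Kdm6b (log2 ratio of replicate 2 over replicate 1 -0.73, adjusted p 1.56e-37 in the exact binomial test), Setdb2 (-0.46, 8.88e-15), Crebbp (-0.40, 2.93e-27) and Ep300 (-0.08, 0.0265). Higher were Sirt1 (0.50, 9.71e-17), Ezh1 (0.44, 5.21e-13) and Ncor1 (0.09, 0.00402). Ezh2 (0.30, 0.12) and Hdac3 (0.03, 0.87) were not called. The median over all tested genes was 0.01, and the common biological coefficient of variation between the libraries was 0.337. Differences of the size of those of Ep300 and Ncor1 were small beside this spread. The larger ones were also common among all genes. Of the tested genes, 12.85% had a lower log2 ratio than Kdm6b, 22.9% than Setdb2 and 25.8% than Crebbp. For Ezh1 and Sirt1 these shares were 73.2% and 75.4%. Direction depended on the scaling for Ep300, whose log2 ratio was 0.09 with library sizes in place of TMM. With the second tool's estimated counts, Ncor1 had a log2 ratio of -0.13 and Ezh1 one of 0.05 that was not called.

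These differences moved with GC content over all genes. The median log2 ratio was 0.67 in the lowest of 10 GC bins and -0.49 in the highest. Kdm6b, at 59.6% GC the richest of the 9, and Crebbp, at 51.7%, lay on the same side of 0 as the medians of their GC bins, -0.49 and -0.18. Sirt1, at 44.0% GC, also did, beside a median of 0.24. Setdb2 and Ezh1 did not: Setdb2, at 42.6% GC, had -0.46 beside a median of 0.35, and Ezh1, at 51.3%, had 0.44 beside -0.18. Neither did Ncor1, with a smaller difference of 0.09 beside -0.02. Ep300, Ezh2 and Hdac3 lay on the same side as the medians of their bins. The part of GC content in these differences was not tested.

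**Figure D3:**
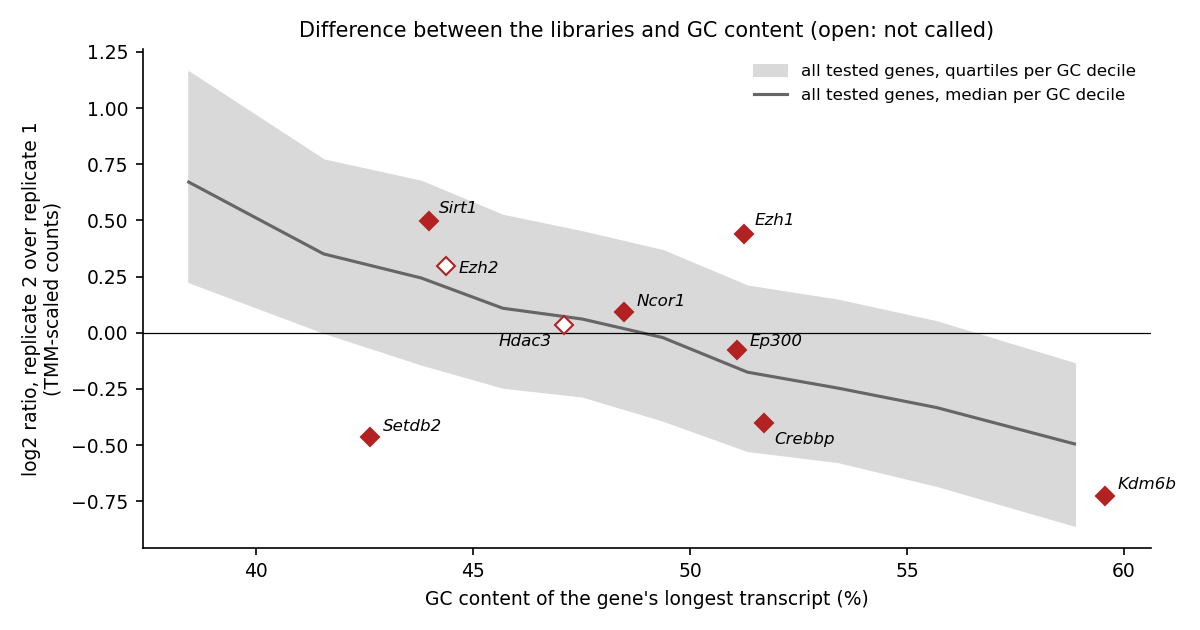
Log2 ratio of TMM-scaled counts, replicate 2 over replicate 1, against the GC content of each gene's longest transcript; red diamonds are the 9 genes (open: not called), the grey line and band the median and quartiles of all tested genes in 10 GC bins. Setdb2 lies below and Ezh1 above the band of their bins.

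The annotation gives the 9 genes 87 transcripts: 43 protein-coding, 25 with a retained intron, 12 processed transcripts without a coding sequence and 7 of the nonsense-mediated decay type. Of these, 16 had 0 TPM in both libraries and 41 were named by the rule of 10% of the gene's TPM in either library. In 6 of the 9 genes, protein-coding transcripts held over 50% of the TPM in both libraries, against 66.3% of 7260 detected genes that also have a non-coding transcript. The members' median coding share was 76.6% in replicate 1 and 55.9% in replicate 2, beside 72.0% and 65.5% for those 7260 genes. The other 3 did not, and these were Ep300 with 38.3% and 50.4%, Sirt1 with 38.7% and 31.2% and Ezh2 with 28.6% and 11.0%. TPM gives a short transcript as much weight as a long one, and by expected counts the coding share was higher, at 74.6% and 71.6% for Ep300, 51.4% and 37.0% for Sirt1 and 50.7% and 28.8% for Ezh2.

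**Figure D4:**
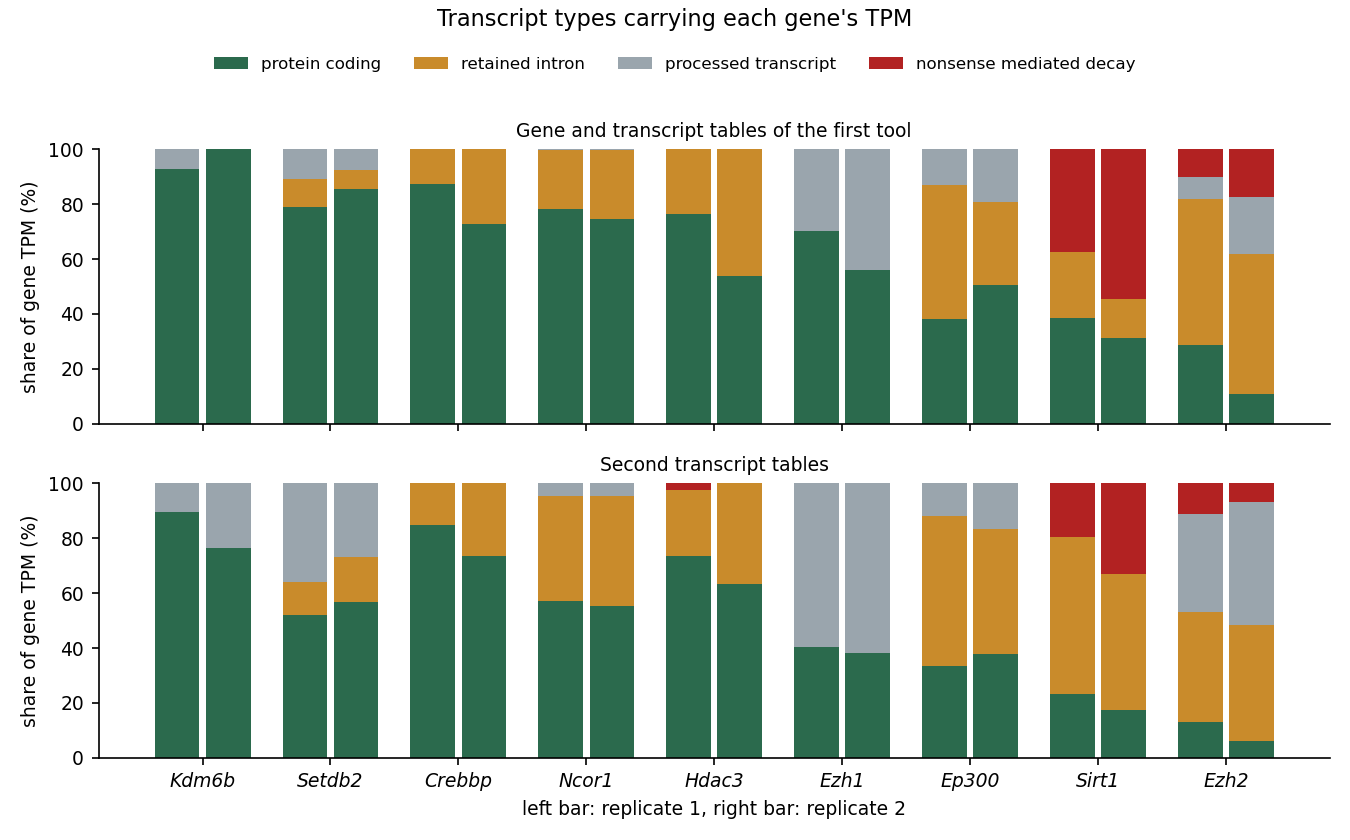
Share of each gene's TPM (percent) on transcripts of 4 annotated types, for replicate 1 (left bar) and replicate 2 (right bar), in the deposited tables of the first tool (top) and the second (bottom). Kdm6b is almost wholly protein-coding in the top panel (92.8% and 100%), Sirt1 is the gene with the most decay-type TPM (37.3% and 54.5%), and Ezh2 is mostly retained intron and other non-coding types.

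Sirt1 carried more of its TPM on a decay-type transcript than most genes. Sirt1-205, the transcript with the additional 125-nt exon and the early stop codon shown above, had 3.56 TPM in replicate 1 and 10.7 in replicate 2, or 37.3% and 54.5% of the gene's TPM, from 565 and 730 counts. Among 2748 detected genes with such a transcript the median share was 3.51% and 2.27%, and the Sirt1 share was above that of 93.9% and 97.3% of them. Sirt1-201, which encodes the full-length protein in 2211 coding bases, had 3.32 and 3.87 TPM, or 34.8% and 19.6%. Its counts were 602 and 299, so between the libraries Sirt1-205 had more counts in replicate 2 and Sirt1-201 fewer. The 2 transcripts share 7 whole exons, and Sirt1-205 is annotated as incomplete at its 5′ end, so the split between them rests on the few bases that differ. The second tool gave Sirt1-205 19.4% and 32.9% and Sirt1-201 10.7% and 0.316%, and gave Sirt1-206, a retained-intron transcript picked out after its values were seen, 36.5% and 36.9%.

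Sirt1-207 lacks a 552-nt coding exon (chr10:63321749-63322300), leaves 75% of the coding length and had 0.14 TPM in replicate 1 and 2.27 in replicate 2. Retained-intron transcript Sirt1-204 had 16.8% and 7.92% of the gene's TPM. No count separates reads over single exons or junctions in the deposited tables, so use of the additional exon was seen only through these transcript estimates.

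**Figure D5:**
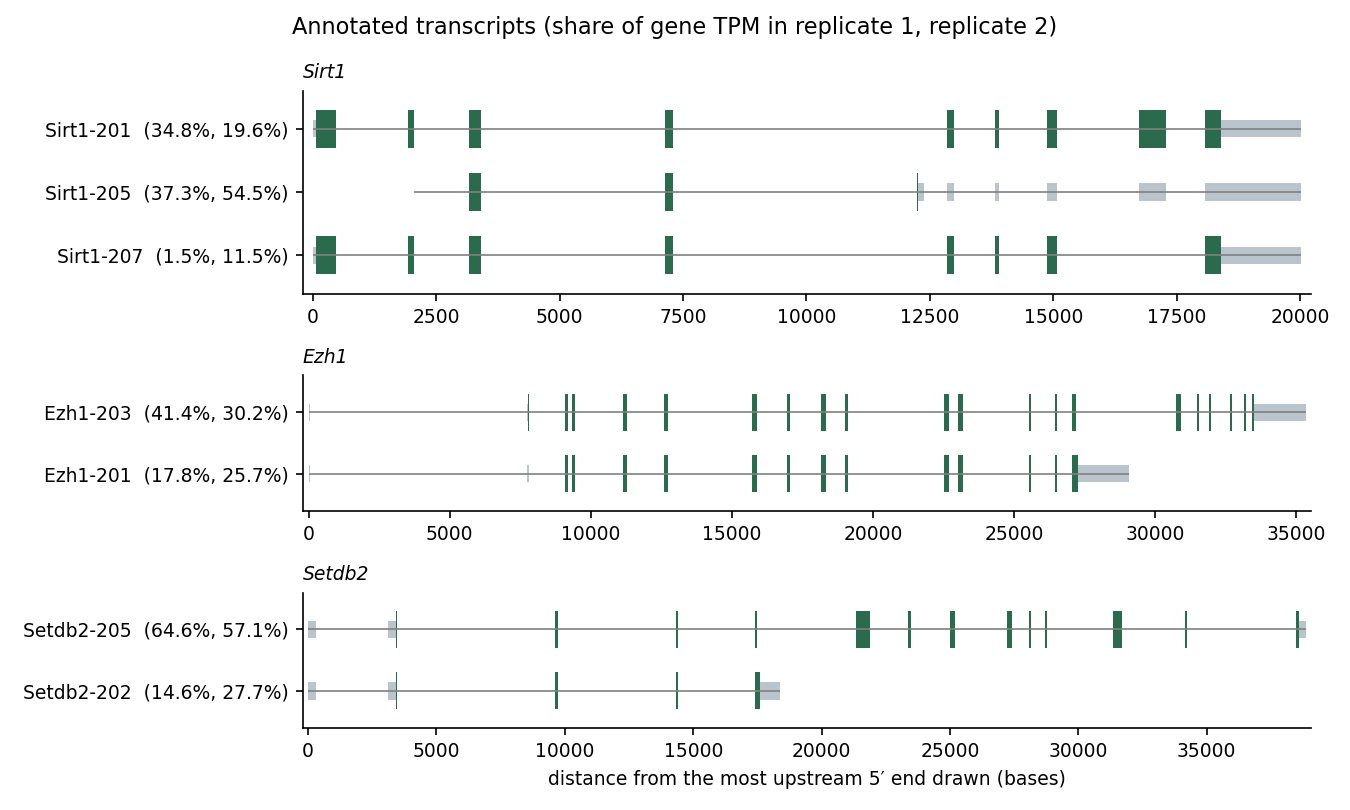
Exon maps of annotated Sirt1, Ezh1 and Setdb2 transcripts by distance in bases from the most upstream 5′ end drawn; green boxes are coding, thin grey boxes non-coding exon bases and lines introns, and the percentages are shares of gene TPM in replicate 1 and replicate 2. Sirt1-205 stops coding in its additional exon, and Ezh1-201 and Setdb2-202 end in exons that run on into an intron.

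For Ezh1 and Setdb2 the transcripts shown above that read into an intron were the second most abundant by the first tool's mean share. By the second tool, Ezh1-201 held 10.1% in replicate 1 and 18.2% in replicate 2, with a mean below those of Ezh1-209 and Ezh1-202. Ezh1-201 ends in 1869 bases of intron (chr11:101197389-101199257), of which 77 are coding, so that its coding sequence has 77.2% of the length of the longest. It held 17.8% of Ezh1 TPM in replicate 1 and 25.7% in replicate 2, from 273 and 447 counts. The full-length Ezh1-203 held 41.4% and 30.2%, and the nearly identical Ezh1-202 10.9% and 0%. The second tool divided these forms otherwise, with 0.551% and 19.9% for Ezh1-203 and 29.9% and 0.300% for Ezh1-202. Together they held 52.3% and 30.2% by the first tool and 30.4% and 20.2% by the second. Since Ezh1-201 has 1254 bases that no other Ezh1 transcript has, its estimate rests on bases of its own, although unspliced precursor RNA holds the same bases and cannot be told apart from it in these tables.

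Setdb2-202 likewise runs 867 bases into an intron (chr14:59422521-59423387), 115 of them coding, and keeps 19.6% of the longest coding length. Its share of Setdb2 TPM was 14.6% in replicate 1 and 27.7% in replicate 2, from 198 and 183 counts. Setdb2-205, with 2091 coding bases, held 64.6% and 57.1%. In deposited TPM, Setdb2-205 had 11.6 and 11.5, beside 2.61 and 5.61 for Setdb2-202. Counts of Setdb2-205 were 1577 in replicate 1 and 673 in replicate 2. The gene total was larger in replicate 2 on deposited TPM, on posterior mean TPM (17.8 and 19.7) and on the second tool's TPM (14.2 and 23.3). It was smaller in replicate 2 on rescaled TPM and TMM-scaled counts. The short processed transcript Setdb2-204 held 11.0% and 7.57% by the first tool and 36% and 27% by the second. The second tool gave Setdb2-205 34.9% and 30.6%, and Setdb2-202 11.85% and 20.2%, with a mean below that of Setdb2-204.

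Non-coding transcripts made up most of Ezh2 and much of the remainder of Ezh1. Retained-intron transcripts held 53.3% of Ezh2 TPM in replicate 1 and 50.8% in replicate 2, led by mean share by Ezh2-213 with 16.7% and 14.3% and Ezh2-207 with 14.9% and 12.3%, then Ezh2-212 with 12.7% and 11.4% and Ezh2-210 with 9.06% and 12.8%. The processed transcript Ezh2-211 held 7.97% and 20.7%, the largest share of any Ezh2 transcript in replicate 2, and 35.7% and 44.7% by the second tool. Over 5599 detected genes with a retained-intron transcript, the median retained-intron share was 23.9% in replicate 1 and 30.1% in replicate 2. Of the full-length coding transcripts of Ezh2, Ezh2-201 held 10.5% and 8.56% and Ezh2-202 10.9% and 0.143%. These rested on few counts, 36.3 and 32.4 for Ezh2-201 and 6.00 and 5.94 for Ezh2-213. Decay-type Ezh2-209 was listed at 0 in replicate 1 and had 13.7% in replicate 2 from 9.03 counts. In Ezh1, which has no retained-intron transcript in the annotation, the processed transcripts Ezh1-209 and Ezh1-205 held 12.6% and 14.1% in replicate 1 and 19.6% and 11.9% in replicate 2. Ezh1-208, also processed, held 3.17% and 12.5%. The second tool gave Ezh1-209 33.8% and 44.3%.

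By mean over the libraries, Ep300 had the next highest retained-intron share, 48.6% in replicate 1 and 30.5% in replicate 2, yet its full-length transcript Ep300-201, with 7236 coding bases, was the largest by TPM in both, at 31.1% and 31.6%. Ep300-207, a 697-nt retained-intron transcript, held 17.7% in replicate 1 and was listed at 0 in replicate 2. By the second tool Ep300-207 held 24.3% and 8.31%, beside 22.5% and 23.4% for Ep300-201. The Ep300 retained-intron share was 54.7% and 45.6% by that tool. Other retained-intron forms were Ep300-205, with 9.61% and 13.0%, and Ep300-208, with 11.3% and 3.23%, and the short coding form Ep300-209 held 4.95% and 11.0%. Ep300-202, a single-exon processed transcript that runs 1625 bases past the first exon into the intron, held 13.1% and 19.1%. In Crebbp the full-length Crebbp-201, with 7323 coding bases, held 55.8% and 52.6%, and retained-intron transcripts 12.8% and 27.1%. Crebbp-205, with 98.4% of the longest coding length, held 22.6% and 10.2%. Crebbp-203, annotated with 3322 bases that are all coding and no untranslated ends, held 7.14% and 10.1%. Crebbp-202, with a retained intron, held 8.72% and 10.8%. Crebbp-206, a 514-nt retained-intron transcript, accounted for 4.05% and 16.2% from 6.37 and 15.7 counts.

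Kdm6b was at the other end. Its 1 coding transcript, Kdm6b-201 with 4923 coding bases, held 92.8% in replicate 1 and 100% in replicate 2. Hdac3 also has 1 coding transcript, Hdac3-201, which held 76.6% and 54.0%, with retained-intron transcripts at 23.4% and 46.0%. These were Hdac3-203, with 17.3% and 17.6%, Hdac3-202, with 6.11% and 13.0%, and Hdac3-204, listed at 0 in replicate 1 and at 15.4% in replicate 2 from 17.1 counts.

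Ncor1, with 25 transcripts the most of the 9, had coding shares of 78.1% and 74.5%, but its annotated coding transcripts are of very unequal length. Coding sequences of at least 90% of the longest held 16.5% of its TPM in replicate 1 and 14.5% in replicate 2, a measure added after the data were seen. The largest, Ncor1-204 with 7362 coding bases, held 13.7% and 14%, beside 11.1% and 17.9% for Ncor1-203, whose 873 coding bases are 11.9% of that length. Ncor1-225, annotated with 781 bases that are all coding and no untranslated ends, held 6.51% and 11.2%. Ncor1-217, with a retained intron, held 9.27% and 11.1%. By the same measure Ep300 had 31.1% and 31.6%, Ezh1 52.3% and 30.2%, and Setdb2 64.6% and 58.0%. By expected counts, which weigh long transcripts more, the measure was 47.5% and 44.5% for Ncor1 and 74.2% and 70.6% for Ep300. In TPM, Crebbp, Kdm6b, Hdac3 and Setdb2 kept more than 50% on such transcripts in both libraries.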

How the data were processed

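Nuclear total RNA-seq was used, 1 group with 2 replicates. The first kind of table, for genes and for transcripts, has columns named as in RSEM: expected counts, TPM, posterior mean TPM and interval bounds, as the authors deposited them. The authors' other transcript table has kallisto column names, with estimated counts and TPM, and is called the second tool. The interval bounds are deposited signal values on the TPM scale. The reference was mm10 with GENCODE M21, per the file headers. For tool versions, aligner and strand setting, the sources used here give nothing. One label calls the fraction nucleus and another nucleoplasmic.

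Rows naming no mouse gene (26345, with 1.79% of counts in replicate 1 and 0.318% in replicate 2) were left out. Expected counts were rounded for tests. Rescaled TPM leaves out genes with an effective length under 200 nt and mitochondrial genes. Libraries were compared by an exact two-sided binomial test on genes averaging 10 or more counts, with TMM factors 0.945 and 1.06 (edgeR 4.0.16, R 4.3.3) and a Benjamini-Hochberg threshold of 0.05. The test was first tried on simulated counts that held counting error only. That trial does not show how it behaves at the wider spread between these libraries. PCR copies were not marked, so tests and floors cover counting error only. Alternatives were DESeq2 1.42.0 size factors, library sizes, no count filter, other TPM thresholds (0.5 and 5) and pseudocounts (0.1), posterior means, the second tool (86 genes without a row there counted as 0) and leaving out each replicate. Named were all 9 genes, their transcripts with 10% or more of the TPM in either library, and each class's highest and lowest gene, 1 of which is not reported here. GC content was that of the longest transcript. The members and lists were chosen with earlier results of these data known. Other software was scipy 1.17.1, pandas 2.3.3, numpy 2.4.6, matplotlib 3.10.9 and Python 3.11.15.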

Additional observations from a re-analysis of the deposited data

How the results depend on the processing

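All 9 genes stayed detected with the rescaled TPM, posterior mean TPM, the second tool and either replicate left out, and 7 of 9 at TPM 5 or more. Of the 57 related genes, 31 were detected at TPM 5 or more, against 49 at TPM 1. The log2 ratio of Ezh2 over Ezh1, -1.55, was -1.74 with a pseudocount of 0.1, -1.71 on rescaled TPM, -1.28 with the second tool and -2.55 on protein-coding transcripts (chosen after seeing the data), and ranged between -1.66 and -1.44 with 1 replicate left out. That of Ep300 over Crebbp, 1.26, was 1.31, 1.30, 1.02 and 0.43 under the same 4 alternatives in that order, and 1.24 to 1.28 with 1 replicate left out. Both kept their direction under these alternatives. Neither ratio was taken on coding sequences of 90% or more of the longest. There Ep300-201 had 8.74 TPM in replicate 1 and 12.35 in replicate 2. Crebbp was split between Crebbp-201, with 6.33 and 8.17, and Crebbp-205, with 2.57 and 1.58. The summed TPM of Crebbp-201 and Crebbp-205 was above that of Ep300-201 in replicate 1 and below it in replicate 2. The second tool gave the same order in each library, so on these forms the direction differed between the libraries. Between the libraries, the second tool turned the direction of Ezh2 (-0.14), Hdac3 (-0.32) and Ncor1 (-0.13), and library sizes that of Ep300 (0.087). The number of the 9 genes called was 7 with DESeq2 size factors, without the count filter and with the second tool, and 8 with library sizes. With the second tool, 1 was higher and 6 lower in replicate 2. Over all tested genes the calls were 8723 of 14698 with DESeq2 size factors and 8665 of 22267 without the count filter. They were 14766 of 23709 with the second tool and 8901 of 14698 with library sizes. Library sizes moved the share of calls higher in replicate 2 to 63.8% over all genes, against 49.4% with TMM. Genes with over 50% coding TPM in both libraries numbered 6, against 7 by expected counts, 5 by the second tool, 5 by posterior means and 4 for coding sequences of 90% or more of the longest (chosen after seeing the data). The second tool gave 8 of 9 genes a lower mean coding share. The causes of these shifts were not tested. Leaving out a replicate allows no comparison between libraries, so that alternative gave no value there. No paired analysis was possible because there is 1 group.

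Transcript estimates limit the isoform values: transcripts of 1 gene share most of their bases, both tools split reads by a model, and short transcripts gain TPM from few counts. Precursor RNA in a nuclear fraction overlaps annotated retained introns. Ezh2 and Hdac3, with 144 to 359 counts per library, had the least depth.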
